A study of Homo sapiens with 4 samples.

Results

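The ALKBH family outside ALKBH5 and FTO is represented here by 7 genes, ALKBH1, ALKBH2, ALKBH3, ALKBH4, ALKBH6, ALKBH7 and ALKBH8, taken by name from the gene column of the deposited site lists. These were 7 of 15209 genes with a listed site, and they carried 74 of the 218950 positions listed in any library as N6-methyladenosine (m6A). The members are described here as methylated transcripts: the values are the m6A on their messenger RNA and the read coverage of that RNA, not the activity of the enzymes. The series compares wild-type HEK293T cells, an established human embryonic kidney line, under 2 conditions. The control cells had no agent named in the labels, and the other cells received ascorbic acid for 36 h, beginning 24 h after seeding, with fresh medium every 6 h. No label gives the ascorbic acid dose. Each group had 2 libraries, and whether these came from separate cultures is not stated, so a p-value here measures the spread between these libraries, which may be technical.

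The family consists of Fe(II) and 2-oxoglutarate dependent dioxygenases, which use molecular oxygen to hydroxylate a methyl group or another carbon of their substrate, after which a hydroxylated N-methyl group is lost as formaldehyde. Ascorbic acid returns oxidised iron to the ferrous form that these enzymes need, and the series' title puts its question in those terms. The members act on different substrates: ALKBH2 and ALKBH3 repair alkylated bases, ALKBH1 and ALKBH8 act on transfer RNA, ALKBH4 acts on protein, and ALKBH7 works in mitochondria. Methylation was read by GLORI, a chemical method: glyoxal and nitrite deaminate unmethylated adenosine, which is then sequenced as G, whereas m6A resists and is sequenced as A. The level of a site is the percent of its A plus G reads that carry A.

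Of the member sites, control 1 listed 47, control 2 listed 52, ascorbic acid 1 listed 51 and ascorbic acid 2 listed 50. Reads at listed sites of all genes came to between 22592887 and 28562744 per library. The median share of unmethylated adenosine left unconverted was 3.88% in control 2 and between 2.51% and 2.87% in the other 3 libraries, and with the share subtracted from each level 10 member sites were still lower, as without. Replicate levels of a site scattered little beyond counting error, with a chi-square per site of 1.16 in control and 1.03 with ascorbic acid. Of 7 marker genes of the HEK293T line, 5 had a listed site, while PAX2 and SOX11 did not. None of the markers of blood, liver, endothelium or differentiated kidney tubule was listed, and of 4 fibroblast markers COL1A1 alone was. Control 1 listed no COL1A1 site and so gives no coverage value for it. In the other libraries its gene coverage was 29.6 to 36.5. A gene enters a list only through an m6A site, so a marker that is not listed may still be expressed.

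The m6A of ALKBH2, ALKBH4 and ALKBH6 was lower with ascorbic acid, and no member passed the test in the other direction. A and G reads were compared by the quasi-likelihood test of edgeR, adjusted over all features by Benjamini-Hochberg, at a two-sided threshold of 0.05. Over all genes, 56.8% of the 10782 tested were lower by this rule and 0.297% higher, so 3 of 7 members is no larger a share than in the transcriptome as a whole. A site could be tested where every library listed it on 20 reads or more. Of the 31 such member sites, 10 were lower, beside 25.7% of the 78509 sites tested over all genes. By edgeR 0 were higher (0.22% of all sites), and 0 reached an unadjusted p of 0.05 in that direction (0.574% of all sites).

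The count of sites varied with the tool. Fisher's exact test on reads pooled within each group called 11 of the 31 lower (26.9% of all sites) and 0 higher (0.287%). DESeq2 called 4 of the 31 lower (12.7% of all sites) and limma on log odds 3 (13.0%), and neither called a member site higher (0.0204% and 0.0395% of all sites). With TMM scaling, which sets each change against the typical site, 3 member sites were lower (11.9%) and 1 higher (4.68%). Without control 2, and without asking that it list the site, 6 of 35 were lower (15.7%) and 0 higher (0.235%). Of the 7 genes, DESeq2 called 3 lower (39.1% of all genes) and 0 higher (0.102%), limma 2 lower (40.9%) and 0 higher (0.176%), and TMM scaling 2 lower (15.2%) and 1 higher (13.9%).

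The member sites started from a higher level than sites in general. Their median was 58.1% in control and 51.2% in the treated cells, where all tested sites had 40.9% and 33.9%. The median change per site was -5.02 percentage points, against -4.89 over all tested sites, and the median log2 odds ratio, defined below, was -0.56 against -0.41. By any amount, 26 member sites were lower (82.9% of all sites). Both ascorbic acid libraries lay below both controls at 19 of the 31 sites (55.4% of all sites) and above both at 2 (4.22%), and at the other 10 the groups overlapped. Of the 7 genes, 5 had both treated libraries below both controls (76.7% of all genes), and ALKBH3 and ALKBH7 did not. The depth of these sites ran from 23 to 688 reads in a library.

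**Figure D1:**
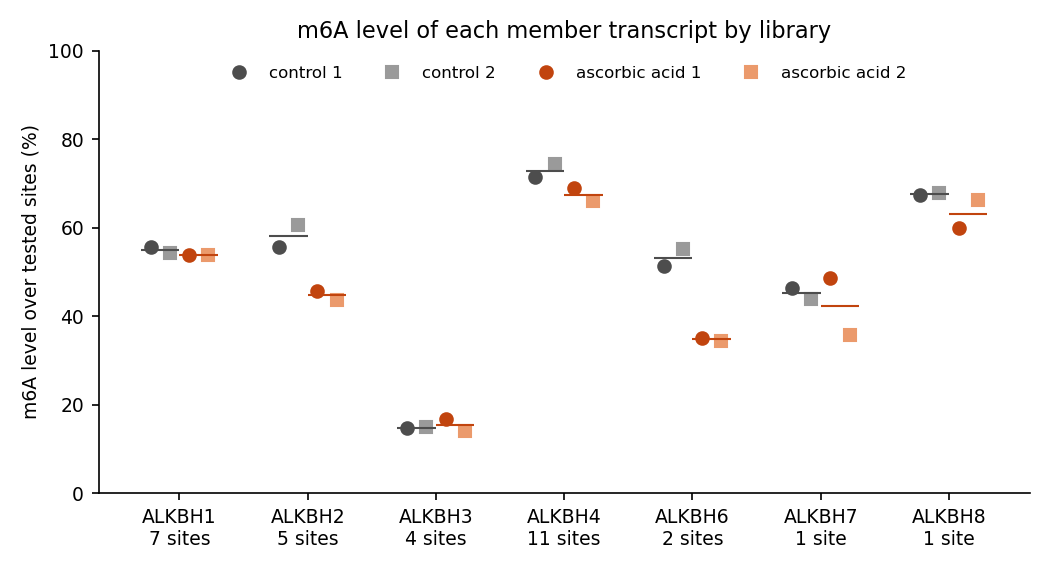
The m6A level of each member transcript, in percent of A plus G reads summed over its tested sites, is plotted for each library, with horizontal lines at the group means (n = 2). The ascorbic acid points of ALKBH2 and ALKBH6 lie far below the control points, those of ALKBH4 lie closer below, and those of ALKBH3 and ALKBH7 lie on both sides of the control points.

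A change is given below in percentage points and as a log2 odds ratio, which is the log2 of the odds of A against G with ascorbic acid over those in control, with its standard error. The median log2 odds ratio over all genes was -0.39, and a member's value is to be read against it. With TMM scaling of the A and G columns that median became 0.05, so the scaled values below are relative to the typical gene.

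ALKBH2 removes methyl lesions such as 1-methyladenine from double-stranded DNA, and all 5 tested sites of its transcript passed. Its gene lies on the minus strand of chromosome 12 from 109088189 to 109093472 (GRCh38). Summed over 5 tested sites, its level was 55.7% in control 1, 60.7% in control 2, 45.6% in ascorbic acid 1 and 43.8% in ascorbic acid 2. Both treated libraries were below both controls, and the groups were further apart than the replicates of either. The mean fell from 58.2% ± 3.51 to 44.7% ± 1.32 (SD, n = 2 per group), a log2 odds ratio of -0.79 ± 0.10 (edgeR adjusted p = 2.09e-06). The call held in all 14 alternative settings that tested it, and with TMM scaling ALKBH2 remained lower than the typical gene (-0.35, edgeR adjusted p = 0.00486).

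The tested ALKBH2 sites form 2 groups on the gene, 1 site near the 3' end and 4 near the 5' end. The site near the 3' end, position 109088411, is 222 nt from the annotated end and was the deepest of all tested member sites, with 503 to 688 reads. It read 45.9% and 50.7% A in control, versus 37.4% and 34.3% with ascorbic acid (edgeR adjusted p = 2.41e-05). The treated libraries were again both lower. The call held in 12 of the 14 settings. It was lost with limma on log odds (adjusted p = 0.104) and with TMM scaling (-0.29, edgeR adjusted p = 0.108).

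The 4 sites near the start lie between 598 and 882 nt from the annotated 5' end of the gene. Positions 109092782, 109092846 and 109092874 follow each other at 64 and 28 nt. A read may cover several of them, so their calls may not be independent. Position 109092782 was close to fully methylated in control, at 93.4% and 92.7%, and read 75.7% and 79.5% with ascorbic acid. All treated values there were far below the narrow control range, and the log2 odds ratio was -1.93 ± 0.29 (edgeR adjusted p = 1.24e-06), a call that held in all 14 settings. Position 109092846 fell from 68.9% ± 7.08 to 58.8% ± 0.280, position 109092874 from 44.9% ± 3.20 to 30.9% ± 0.0673, and position 109092590 from 43.2% ± 1.82 to 31.7% ± 3.68. Their adjusted p-values by edgeR lay between 0.00364 and 0.00861. Each of these 3 calls was lost in 5 to 7 of the 14 settings, among them DESeq2, limma and TMM scaling.

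ALKBH3 also repairs alkylated bases, in single-stranded DNA and in RNA, and its 4 tested sites carried m6A at low levels. The gene lies on the plus strand of chromosome 11 from 43880831 to 43920274, and 15 positions were listed. Summed over its 4 tested sites, the level was 14.7% and 14.9% in control, versus 16.7% and 14.1% with ascorbic acid. The treated libraries lay on both sides of the controls, and the log2 odds ratio was 0.06 ± 0.20 (edgeR adjusted p = 0.802). Its sign turned to -0.01 when sites with another listed site 6 nt away were left out. The lists hold no level under 10%, so a site that fell below it could not be tested. Position 43881141 read 13.9% and 19.9% in control and was listed in neither ascorbic acid library. Among all member sites it was the only 1 listed in both controls alone, while 3 were listed in both ascorbic acid libraries alone.

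All 4 tested ALKBH3 sites lay under 20% on average in both groups. The largest change in mean level among them was at position 43901592, which read 12.9% and 11.5% in control, versus 20.0% and 13.7% with ascorbic acid (edgeR adjusted p = 0.433). Position 43920199, the deepest, read 15.4%, 11.4%, 11.3% and 13.4% in the same order of libraries (edgeR adjusted p = 0.866). At position 43901592 both treated libraries lay above both controls, but further apart from each other than ascorbic acid 2 was from either control. The libraries of position 43920199 overlapped, and neither site passed the test. Positions 43901592 and 43901598 are 6 nt apart. The last 5 listed positions of ALKBH3 lie within the span of ALKBH3-AS1, an antisense gene; the lists place them on the plus strand, and no label tells how reads were assigned to strands, so their gene is uncertain.

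ALKBH3 was the only member with listed sites in the first 50 bases of the gene, and that stretch is shown because 4 listed adenosines stand close together in it. The sequence is chr11:43880831-43880860 on the plus strand, from RefSeq (GRCh38.p14), written 5′ to 3′ with the listed adenosines in capitals.
ALKBH3 start: ActcttAaggttccgatcAcagActgcgga

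The capitals are bases 1, 7, 19 and 23 counted from the annotated start of the gene. Base 1 is the annotated first base itself. It was listed at 73.7% in control 2 (19 reads, 95% Wilson interval 51.2% to 88.2%), at 47.4% in ascorbic acid 1 (19 reads, 27.3% to 68.3%) and at 53.8% in ascorbic acid 2 (26 reads, 35.5% to 71.2%), and it was not listed in control 1. The intervals overlap, and the difference between these libraries was not tested. The other 3 capitals were each listed in 1 library, at 15%, 10.6% and 11.1%, which is close to the lowest level the lists hold. An adenosine at the very start of an mRNA can carry a second methyl group on its ribose (m6Am), which GLORI reads as A in the same way. Over all genes, 1546 listed sites stood at an annotated first base, and the 734 of them that were tested had a median of 29.7% in control against 30.1% in the treated cells.

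ALKBH1 acts on several substrates, among them methylated adenine and 5-methylcytosine in transfer RNA, and its transcript did not pass the test for m6A. The gene lies on the minus strand of chromosome 14 from 77672404 to 77708023. Over 7 tested sites the level was 55.7% and 54.3% in control, versus 53.9% and 53.8% with ascorbic acid. The treated libraries were below both controls, but the gap was small, and the log2 odds ratio was -0.07 ± 0.11 (edgeR adjusted p = 0.626). Set against the typical gene by TMM scaling, ALKBH1 was higher (0.38, edgeR adjusted p = 0.00885), whereas the unweighted mean over its sites gave -0.33 (limma adjusted p = 0.0834).

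The ALKBH1 sites covered nearly the whole range of levels. Position 77673737 read 96.7%, 95.6%, 93.5% and 95.2% in control 1, control 2, ascorbic acid 1 and ascorbic acid 2. Position 77674035, the deepest ALKBH1 site, read 13.5%, 11.5%, 13.5% and 14.1% in the same order (edgeR adjusted p = 0.707). No ALKBH1 site passed the test.

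The largest change in mean level at an ALKBH1 site was at position 77673810, which read 59.3% and 72.1% in control, versus 57.1% and 54.6% with ascorbic acid. The 2 controls there stood further apart than control 1 and either treated library, and the edgeR adjusted p was 0.154. Position 77673958 came nearest to the threshold, from 94.3% ± 0.924 to 88.6% ± 1.59 (edgeR adjusted p = 0.0534). It passed as lower with a minimum of 50 reads (edgeR adjusted p = 0.0445). Position 77674005 was 58.1% ± 2.92 in control and 62.5% ± 3.51 with ascorbic acid (edgeR adjusted p = 0.562), with overlapping libraries. With TMM scaling it was higher than the typical site (edgeR adjusted p = 0.0319).

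ALKBH8 joins a methyltransferase domain to its dioxygenase domain and modifies the wobble uridine of certain transfer RNAs. It had 12 listed sites on the minus strand of chromosome 11 between 107502957 and 107510922, within a gene from 107502727 to 107565735. Only position 107504751 could be tested, at 67.3% and 67.9% in control, versus 60% and 66.2% with ascorbic acid on 45 to 65 reads. The treated libraries were both below the controls, yet further apart from each other than ascorbic acid 2 was from control 1. The log2 odds ratio of the gene, -0.25 ± 0.39, did not pass (edgeR adjusted p = 0.608 over genes). Nor did the site itself (edgeR adjusted p = 0.714 over sites).

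Several of the most methylated ALKBH8 sites could not be tested because a library did not list them. Position 107504732 read 97.7% in control 1, 96.7% in ascorbic acid 1 and 93.8% in ascorbic acid 2, and position 107504877 read 93.1%, 91.2% and 93.6% in the same 3 libraries. Control 2 listed neither. Position 107504968 read 100.0%, 97.8% and 94.4% in control 1, control 2 and ascorbic acid 1, on 32 to 46 reads, and was not listed in ascorbic acid 2. Position 107504900 was listed in neither control, and read 96.4% in ascorbic acid 1 and 100% in ascorbic acid 2, on 28 and 32 reads.

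ALKBH4 demethylates a lysine of actin, and its transcript had the most listed sites of the 7, 18. Over tested sites alone it also had the highest level of the 7. The gene lies on the minus strand of chromosome 7 from 102456238 to 102464863. Over 11 tested sites its level was 71.5% and 74.3% in control, versus 69.0% and 66.0% with ascorbic acid. Both treated libraries were below both controls. The mean fell from 72.9% ± 1.99 to 67.5% ± 2.12, a log2 odds ratio of -0.38 ± 0.10 (edgeR adjusted p = 0.00266). That is the size of the median gene, and with TMM scaling the value was 0.06 (edgeR adjusted p = 0.618). The call was also lost with limma on log odds (adjusted p = 0.112) and by edgeR without ascorbic acid 2 (adjusted p = 0.106). The unweighted mean over its sites gave -0.64 (limma adjusted p = 0.0268).

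The 3 ALKBH4 sites that passed had control means above 93%. Position 102457833 read 95.2% and 95.0% in control, versus 86.9% and 85.1% with ascorbic acid, with a log2 odds ratio of -1.66 ± 0.30 (edgeR adjusted p = 2.02e-05). The control libraries nearly coincided there, the treated ones were both lower, and the call held in all 14 settings. Position 102457436 fell from 93.2% ± 0.419 to 86.8% ± 1.80 (edgeR adjusted p = 0.0105). Position 102457208 read 98.0%, 96.2%, 93.3% and 93.3% in control 1, control 2, ascorbic acid 1 and ascorbic acid 2 (edgeR adjusted p = 0.0140). These 2 calls held in 7 and 8 of 14 settings.

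The other 8 tested ALKBH4 sites were all lower by some amount and did not pass. The largest difference was at position 102456979, with 35.0% and 45.2% in control, versus 22.6% and 26.1% with ascorbic acid on 31 to 46 reads (edgeR adjusted p = 0.149). Position 102457791, the deepest ALKBH4 site at 307 to 407 reads, read 37.8% and 46.7% in control, versus 42.4% and 30.7% with ascorbic acid. Its libraries overlapped although it was deeply covered (edgeR adjusted p = 0.131).

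ALKBH6 is a family member whose substrate is less well known. The gene lies on the minus strand of chromosome 19 from 36009120 to 36014239 and had 2 listed sites, 16 nt apart and 96 and 112 nt from the annotated 3' end. Over both, the level was 51.4% and 55.1% in control, versus 35.0% and 34.5% with ascorbic acid. The groups did not overlap. The treated libraries nearly coincided in this sum, although at the 2 single sites they differed in opposite directions. The mean fell from 53.3% ± 2.60 to 34.8% ± 0.363, a log2 odds ratio of -1.11 ± 0.16 (edgeR adjusted p = 7.99e-06), and the call held in all 14 settings.

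The 2 ALKBH6 sites differed in how far they fell. Position 36009232 read 38.9% and 40.9% in control, versus 12.9% and 18.3% with ascorbic acid, on 167 to 220 reads. At -24.3 points this was the largest change of any tested member site (log2 odds ratio -1.84 ± 0.24, edgeR adjusted p = 5.71e-08), and the call held in all 14 settings. Position 36009216 read 65.5% and 73.3% in control, versus 61.3% and 56.3% with ascorbic acid, which was lower in both treated libraries but by less than at its neighbour (log2 odds ratio -0.68 ± 0.24, edgeR adjusted p = 0.0339). That call held in 7 of 14 settings. A read can cover both sites, so they are not independent, and the difference between them was not tested.

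ALKBH7 is the mitochondrial member of the family, and its short gene lies on the plus strand of chromosome 19 from 6372794 to 6375250. Position 6375023 alone could be tested, and it read 46.4% and 43.9% in control, versus 48.6% and 35.8% with ascorbic acid on 57 to 107 reads. The treated libraries lay far apart, on both sides of the controls, and the site did not pass (edgeR adjusted p = 0.766 over sites). Nor did the log2 odds ratio of the gene, -0.17 ± 0.33 (edgeR adjusted p = 0.679 over genes). The sign of the gene's value turned with TMM scaling (0.27) and without ascorbic acid 2 (0.19). Position 6375127 was listed in all libraries at 55.6%, 53.3%, 52.9% and 69.6%, but on 15 to 23 reads. Position 6375037 was listed at 73.9% in ascorbic acid 2 alone (23 reads, 95% Wilson interval 53.5% to 87.5%).

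**Figure D2:**
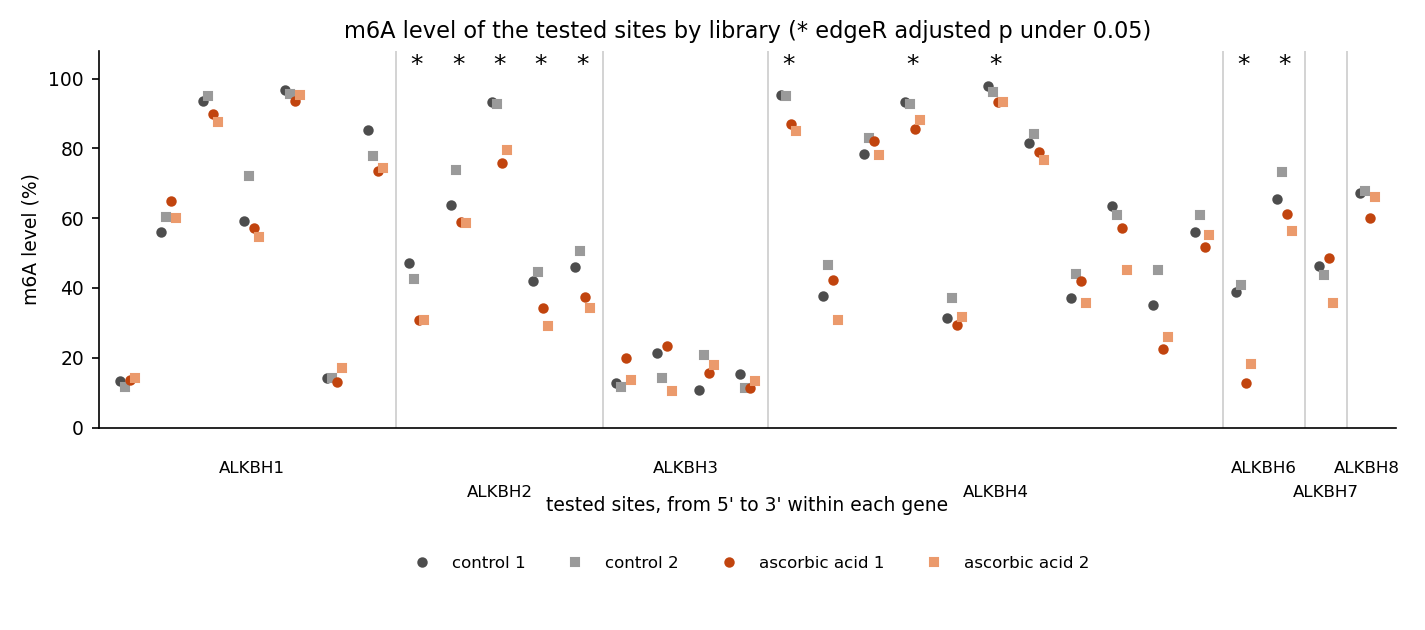
The m6A level in percent of each of the 31 tested sites is plotted for each of the 4 libraries, with sites ordered from 5' to 3' within each gene and a star over the 10 that passed by edgeR. All 5 ALKBH2 sites and both ALKBH6 sites carry a star, while all 4 ALKBH3 sites lie low with mixed libraries.

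In control, the gene levels ran in the order ALKBH4 (72.9%), ALKBH8 (67.6%), ALKBH2 (58.2%), ALKBH1 (55.0%), ALKBH6 (53.3%), ALKBH7 (45.1%) and ALKBH3 (14.8%). The control libraries of ALKBH2 and ALKBH1 overlapped, as did those of ALKBH1 and ALKBH6, so these neighbours in the order do not differ beyond their spread. With ascorbic acid ALKBH2 took the place below ALKBH1, at 44.7% ± 1.32 against 53.9% ± 0.0973. ALKBH6 took the place below ALKBH7, at 34.8% against 42.2% ± 9.06. The levels rest on the sites each gene has, and for ALKBH7 and ALKBH8 on 1 site each.

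The change of a site in points goes with its level in control, and member sites were therefore set beside all tested sites of like level. Over all sites with a control mean between 10% and 20% the median change was -1.05 points and 4.65% were lower by edgeR, whereas between 80% and 100% the median change was -9.60 points and 57.3% were lower. The 6 member sites of the lowest band, of ALKBH1 and ALKBH3, had a median change of 0.932 points, and none passed. The lists hold no level under 10%, so a site that fell below it in any library could not be tested. The changes in this band, for members and for all sites, therefore leave out such falls. Of the 2 members between 20% and 40%, 1 was lower (13.9% of all sites in that band), with a median of -13.9 points against -3.96. Of the 9 members between 40% and 60%, 3 were lower (33.3%, against 24.8% of all sites in that band), with a median of -5.70 points against -7.09. Of the 5 between 60% and 80%, 2 were lower (38.8% of all sites), with a median of -10.1 points against -9.42. Of the 9 above 80%, 4 were lower (44.4% against 57.3%), with a median of -5.66 points against -9.60. Both ALKBH6 sites and all 5 ALKBH2 sites had a larger fall than the median of their band.

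**Figure D3:**
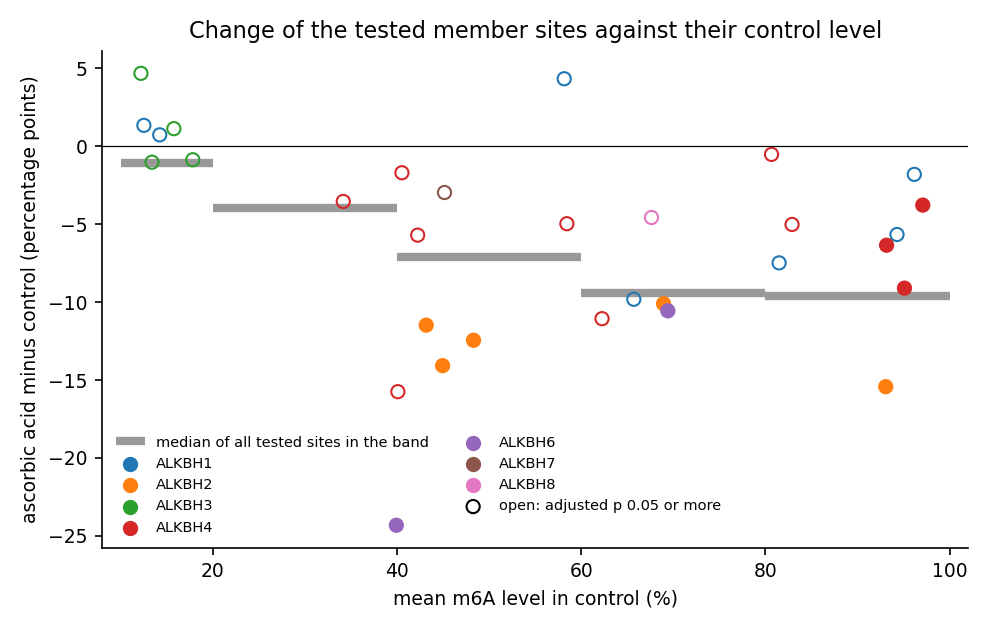
The change in level with ascorbic acid, in percentage points, is plotted against the mean control level in percent for each tested member site, with grey bars at the median change of all tested sites in each band of control level and filled points for sites past the edgeR threshold. The ALKBH6 point at -24.3 points lies lowest, the ALKBH2 points lie below their bars, and the points of ALKBH3 lie near 0 at the left.

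Less than the full set of member sites entered these tests. Of the 74 listed positions, 32 were listed in all 4 libraries (43.2%, against 38.4% of all listed sites), 11 in 3 libraries, 8 in 2 and 23 in 1 (31.1% against 35.1%). The sites listed once were mostly of low level, with a median of 11.9% and 20 of 23 under 20%, while the sites listed in all 4 libraries had a median of 56.3%. The lists hold no site under 15 reads, 5 A reads or a level of 10%, so a site near those limits can be listed in 1 library and not in the next. Sites listed in control libraries alone numbered 15 (20.3%, against 20.8% of all sites), and in ascorbic acid libraries alone 12 (16.2% against 20.2%).

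Control 2 lacked sites that the other libraries listed at high level. Of 19 member sites at 50% or more with at least 25 reads in the other 3 libraries, 4 were not listed in control 2 (21.1%, against 6.52% of all such sites), whereas for each of the other libraries the share over all sites was below 1% and at most 1 member site was missing. Apart from the pair in ALKBH8, these were ALKBH4 position 102457369, at 87.6% in control 1 and 84.6% and 80.4% with ascorbic acid, and ALKBH4 position 102457374, at 67.8%, 62.6% and 63.2%. They had 189 to 214 reads in those libraries, and they lie 5 nt apart. Tested without control 2, none of the 4 passed by edgeR, with adjusted p-values from 0.332 to 0.975.

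**Figure D4:**
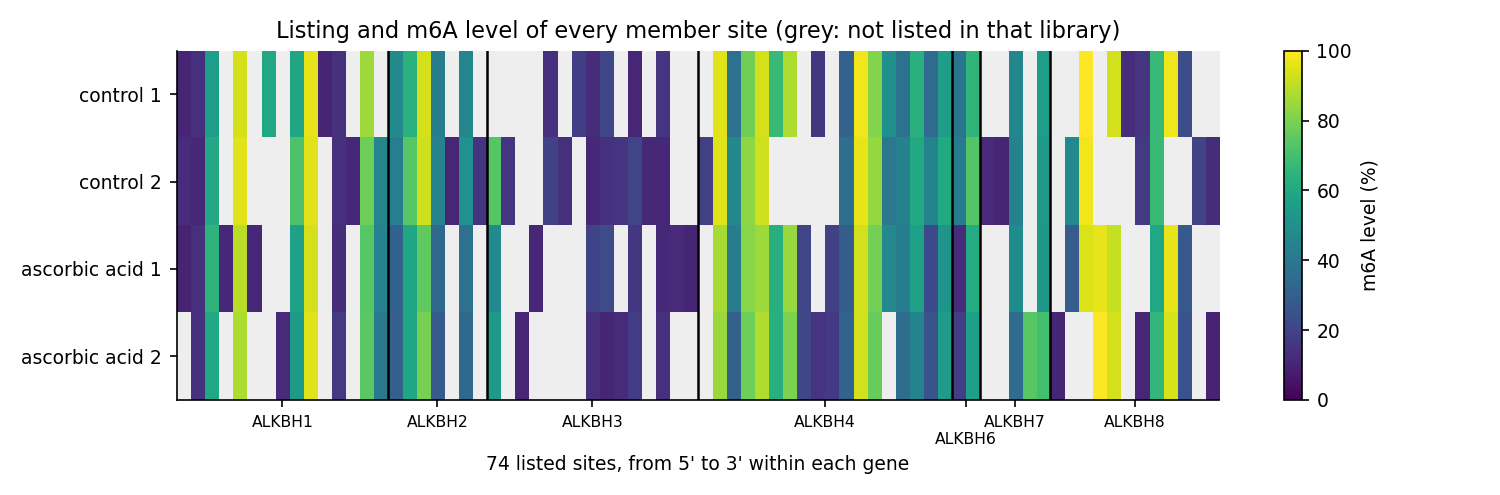
Each column is 1 of the 74 listed member sites, ordered from 5' to 3' within each gene, each row is a library, and colour gives the m6A level in percent, with pale grey where the library does not list the site. The pale gaps in the control 2 row fall within otherwise bright columns of ALKBH4 and ALKBH8, and most dark columns are filled in 1 or 2 rows.

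Many member sites lay near the 3' end of the gene. Of the 74, 50 lay within 2000 nt of the annotated 3' end of their gene (67.6%, against 34.4% of 169133 listed sites in protein-coding genes), counted along the genome with introns included. All 15 ALKBH1 sites, all 18 ALKBH4 sites and both ALKBH6 sites did, as did 4 of 5 in ALKBH7. Of the others, 3 of 7 ALKBH2 sites, 5 of 15 ALKBH3 sites and 3 of 12 ALKBH8 sites lay within that distance. In ALKBH8, 8 more sites stood just beyond it, within 2271 nt. ALKBH7 as a whole spans 2457 nt. Exons, introns and untranslated regions were not assigned here.

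No member passed the test for a change in transcript coverage. The deposited gene coverage, scaled to a common median ratio across libraries, was tested with limma, and 0 of 7 members passed, against 0.253% of 11848 genes that were higher and 0.0422% lower. At an unadjusted p of 0.05 by limma, ALKBH1 was lower (6.29% of all genes) and ALKBH7 higher (8.14%). ALKBH7 had a scaled coverage of 350.5 and 342 in control, versus 398 and 392 with ascorbic acid. Both treated libraries were higher, by 0.19 ± 0.06 on the log2 scale (limma adjusted p = 0.215).

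ALKBH1 had a scaled coverage of 111 and 109 in control, versus 101 and 97.0 with ascorbic acid. Both treated libraries were lower, by a log2 ratio of -0.15 ± 0.06 (limma adjusted p = 0.308). For ALKBH2, whose m6A fell, coverage was 284 and 279 in control, versus 300.2 and 309 with ascorbic acid, a log2 ratio of 0.11 ± 0.06 (limma adjusted p = 0.411). ALKBH6, with the largest fall in m6A of the 7, had a log2 ratio of -0.03 ± 0.07 (limma adjusted p = 0.877) with overlapping libraries. The log2 ratios of ALKBH3, ALKBH4 and ALKBH8 were -0.10, -0.08 and -0.05. The signs for ALKBH6 and ALKBH8 turned when libraries were scaled by total reads or left unscaled, and that for ALKBH4 when left unscaled. No source defines the unit of this coverage per length, so it is compared between libraries and not between genes.

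**Figure D5:**
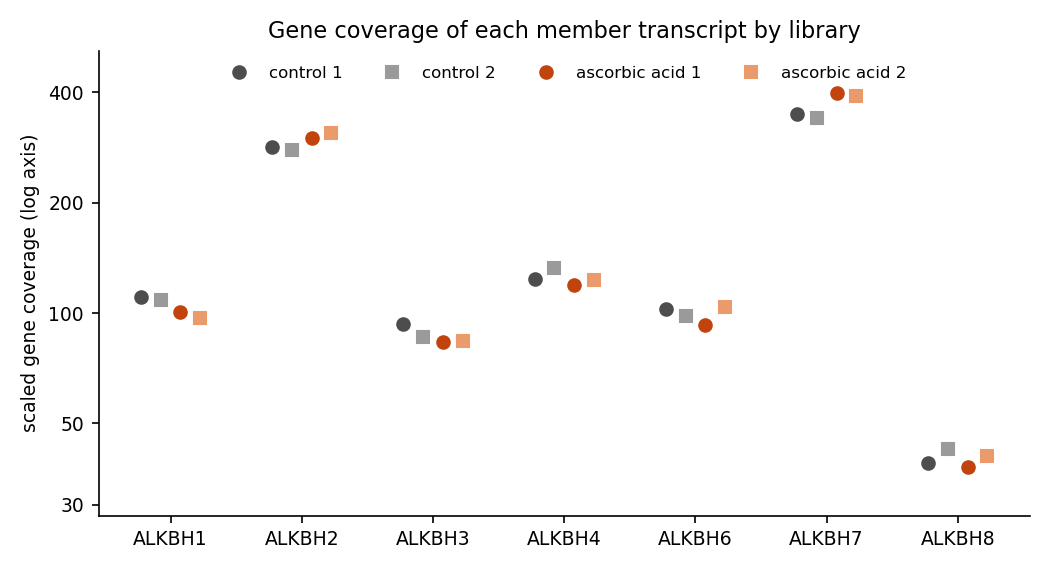
The scaled gene coverage of each member is plotted for each library on a log axis. The ALKBH7 and ALKBH2 points with ascorbic acid lie above their controls and the ALKBH1 points below, and no member passed the limma test.

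Genes of related pathways were counted by the same edgeR test, and in each list at least as many measured genes were lower in m6A as did not pass. Of the other nucleic acid dioxygenases, 4 of 5 were lower, with log2 odds ratios of -0.94 for FTO, -0.65 for TET1, -0.29 for TET3 and -0.26 for ALKBH5, and TET2 did not pass. Of 16 measured genes of alkylation repair and partners of ALKBH2 and ALKBH3, 11 were lower. APEX1, the main endonuclease for sites that have lost a base, had 1 tested site and fell from 88.1% ± 0.220 to 42.5% ± 1.37 (log2 odds ratio -3.32, edgeR adjusted p = 5.82e-17). LIG3, a DNA ligase, fell from 53.0% ± 0.0867 to 32.0% ± 0.698, and ASCC3, the helicase that opens DNA for ALKBH3, from 30.1% ± 3.40 to 19.1% ± 0.209. USP9X, a deubiquitinase, fell from 44.0% ± 3.33 to 26.3% ± 2.64.

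Of 9 measured genes for wobble uridine modification around ALKBH8, 7 were lower. Among these, the log2 odds ratio was -0.58 for URM1, -0.45 for ELP5 and -0.43 for ELP6; ELP5 and ELP6 encode subunits of Elongator, which starts the modification, and URM1 is the sulfur carrier of the thiolation step. Of 8 genes around 1-methyladenosine and 5-methylcytosine in transfer RNA, marks which ALKBH1 can act on, 4 were lower. PRORP, the nuclease of the mitochondrial ribonuclease P, stood at -1.40, TRMT61B at -1.08, TRMT6 at -0.71 and NSUN2 at -0.51. No gene of these 4 lists was higher, and none passed in coverage by limma. Over all genes 6119 of 10782 were lower. The median log2 odds ratio was -0.29 for the other dioxygenases, -0.40 for alkylation repair, -0.45 for wobble uridine modification and -0.32 for the transfer RNA enzymes, beside -0.25 for the 7 members and -0.39 for all genes.

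Other transcripts had library profiles much like those of the members. Likeness was taken as the Euclidean distance between the 4 library levels, in percentage points, over genes with at least 3 tested sites (or as many as the member has, where fewer). ALKBH2 was nearest to RAB21, at a distance of 1.68, with RAB21 at 55.8% and 60.8% in control, versus 44.2% and 44.6% with ascorbic acid. ALKBH6 was nearest to BIRC6 (1.60), ALKBH4 to MITF (1.11), ALKBH1 to MEX3D (1.52) and ALKBH3 to PRELID3B (1.03). ALKBH8 was nearest to TBC1D10A (1.64) and ALKBH7 to ROCK1P1 (3.63), a pseudogene that can take up reads of ROCK1. The search ran over 7235 to 10781 genes.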

How the data were processed

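Messenger RNA (300 ng per library) was fragmented, protected with glyoxal and deaminated for 8 h at 16 °C, per the labels' protocols. The submitters' processing notes name STAR, Trimmomatic 0.39 and, as builds, GRCh38 and hg38; no site caller is named there or in the file headers. The deposited A plus G and A read counts per site are the authors' whole counts. The level is a fraction made by the authors, the A reads divided by all A and G reads, which was recomputed without difference beyond rounding; their conversion rate per gene is a second fraction. Gene coverage is a signal deposited by the authors with no stated scaling. The p-values and adjusted p-values per site, per the file headers, are the authors' and were not used.

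The members and gene lists were chosen with earlier results of these data known. Sites named are, per member, those past the threshold, the deepest tested and the one of largest change, or all where 4 or fewer were listed; sites not listed in every library, the ALKBH1 sites 77673737, 77673958 and 77674005 and base 1 of ALKBH3 were named after their values were seen. Of each gene list, up to 4 genes with the smallest p were named, and 1 gene that the rule names is not reported here. The fits ran over all sites or genes in R 4.3.3 with edgeR 4.0.16 and limma 3.58.1 (trended eBayes on log2 coverage); DESeq2 1.42.0, limma on log odds with 0.5 added, Fisher's exact test on pooled reads, read minimums of 15 and 50, TMM, scaling of coverage, subtraction of the unconverted share, sites 6 nt apart left out, the unweighted mean of log2 odds over a gene's sites by limma, a replicate block and each library left out were the alternatives. Gene sums count a read at each site it covers. Tests were tried on simulated data. Intervals cover counting error only, since no label states that duplicate reads were removed. Gene spans are those of RefSeq, GRCh38.p14, and listed sites in its promoter sequences were checked to be A (7318 of 7318).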

Additional observations from a re-analysis of the deposited data

How the results depend on the processing

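The 10 member sites that passed by edgeR became 4 with DESeq2, 3 with limma on log odds, 3 with TMM scaling, and 6 with control 2 left out and its listing not required, an alternative added after the data were seen. Leaving out a library gave 5 (without ascorbic acid 2) to 8 sites, with 6 without control 2 and 7 without ascorbic acid 1. With TMM 1 member site and 1 member gene, both ALKBH1, were higher. Of the 3 member genes, 2 remained with limma, TMM and without ascorbic acid 2. With TMM the log2 odds ratio turned to 0.38 for ALKBH1, 0.065 for ALKBH4, 0.27 for ALKBH7 and 0.19 for ALKBH8, and at single sites to 0.34 (ALKBH3 43920199), 0.066 (ALKBH4 102457791), 0.28 (ALKBH7 6375023) and 0.20 (ALKBH8 107504751). ALKBH3 turned to -0.013 without sites 6 nt apart. The log2 ratio of coverage turned to 0.0091 for ALKBH4 unscaled, and scaled by total reads or unscaled to 0.025 and 0.057 for ALKBH6 and to 0.012 and 0.044 for ALKBH8.

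With each library left out in turn, log2 odds ratios that changed sign ran from -0.077 to 0.21 for ALKBH3, from -0.36 to 0.14 for its site 43920199, and from -0.57 to 0.19 for ALKBH7 and its site; log2 ratios of coverage that did so ran from -0.11 to 0.048 for ALKBH6 and from -0.11 to 0.021 for ALKBH8. No member passed in coverage under any setting tried, including without any 1 library. The cause of these changes was not tested. Replicate numbers pair no samples by label, and same-numbered libraries did not deviate together (correlation -0.005 for sites, -0.163 for coverage); with the replicate block 10 member sites, 3 member genes and 0 in coverage passed. A crossed pairing for coverage, added after the data were seen, called 22 genes lower and 85 higher over all genes, against 22 and 70 with the numbers as given, and 0 members. ALKBH7 and ALKBH8 rest on 1 tested site each, on 45 to 107 reads. Levels were also summed over all sites each library lists, in place of the shared ones, so these sums rest on different sites in each library. The difference was then 17.8 points for ALKBH7, 11.2 for ALKBH8, 1.00 for ALKBH1 and -7.38 for ALKBH2. In the order control 1, control 2, ascorbic acid 1 and ascorbic acid 2, ALKBH7 read 48.0%, 13.1%, 49.2% and 47.5%. Control 2 alone stood apart there, and it alone listed ALKBH7 position 6374952, at 10.5% on 860 reads. ALKBH8 read 51.1%, 37.7%, 71.6% and 39.5% in that order.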
